A study of Xenopus laevis with 32 samples.

Results

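Tails of Xenopus laevis embryos taken at the moment of amputation in the refractory period were compared with tails taken at the same moment in the regeneration period. The comparison used 7 of the 32 libraries of the study. They were refractory 0 h A, B, C and D and regeneration 0 h B, C and D, which are the 0 h libraries that the authors' normalized tables keep. Regeneration 0 h A is not in those tables, the sources used here give no reason, and it entered only as an alternative. All 7 libraries were labelled as amputated tail at 0 min after amputation, from 4 biological repeats per group marked A to D. Every sample held total RNA of 20 embryos from fertilized eggs of hormone-stimulated females, and no transgene or drug is named. Further libraries of both periods were taken at 0.5, 6 and 72 h after amputation. The labels' extraction protocol names a regenerative stage even for refractory samples, so how old the refractory embryos were is not settled. Period, developmental age, clutch and sample preparation cannot be told apart in this design. Nothing states which samples came from separate clutches, so p-values measure the spread between these samples, which may be technical.

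A Xenopus tadpole regrows an amputated tail, with its spinal cord, notochord and muscle, through a specialised wound epidermis and the proliferation of cells below it. In the refractory period, a short window of development, the wound is covered by epidermis but the tail does not regrow. The 0 h tails show the state of the tissue that the cut meets in each period. The larval skin is changing over these stages: the embryonic epidermis, with its ciliated and mucus-secreting cells, gives way to a larval epidermis with its own keratins and secreted proteins.

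The raw counts of the 2 periods were joined by gene identifier, which left 27467 genes in both tables, of which 17288 passed the filter on low counts. Levels are CPM, the counts scaled by library size and TMM factor, and a log2 difference is refractory minus regeneration. Summed levels of gene lists and the ranges given for rho.S are CPM of the library total alone, without the TMM factor. A gene was called when its adjusted p in edgeR's quasi-likelihood test was under 0.05. Of the genes tested, 343 were called (1.98%), 131 higher (0.758%) and 212 lower (1.23%) in refractory tails. The libraries of the periods did not overlap for 329 of the 343, against 2144 of all genes tested (12.4%, with 5.66% higher and 6.74% lower in refractory tails). The median log2 difference was 1.28 among the genes called higher, -0.87 among those called lower and 0.02 over all genes tested. Over all genes tested, 8901 differences were positive and 8387 negative. More than a 2-fold difference was fitted for 81 of the genes called higher and 79 of those called lower. Single libraries weighed on these counts: 144 genes were called without regeneration B, 146 without regeneration C and 225 without refractory B. With regeneration A added, 110 genes were called, 62 higher and 48 lower, and 106 of them were among the 343. With refractory A and B left out together, chosen after seeing the data, 330 were called, 181 higher and 149 lower. None of the 343 changed sign in any of these fits.

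**Figure D1:**
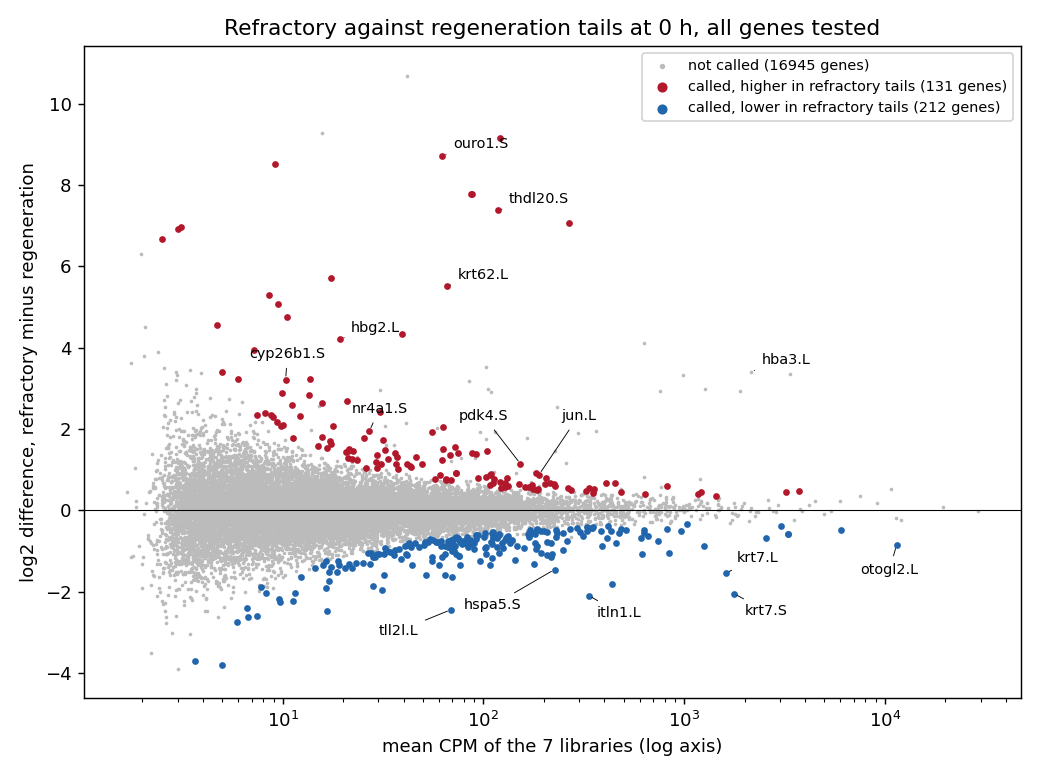
Each point is 1 of the 17288 genes tested, with its mean CPM over the 7 libraries on a log axis and its log2 difference, refractory minus regeneration, on the vertical axis. The 131 genes called higher (red) reach larger differences than the 212 called lower (blue).

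Total counts ran from 2130840 to 3100089 per refractory library and from 2646237 to 3876807 per regeneration library. On the first principal component, 25.8% of the variance, the 4 refractory libraries lay apart from the 3 regeneration libraries, and refractory A stood apart from the rest on the second (20.7%). The libraries were labelled tail, yet genes that define retina, lens, forebrain and liver were present in every one of them. Rhodopsin, the light receptor of rods, had 227 to 319 CPM for rho.S in refractory libraries and 169 to 245 in regeneration libraries, and fetub.S, a protein that liver secretes, averaged 3633 ± 434 CPM in refractory tails and 2676 ± 387 CPM in regeneration tails (SD, n = 4 and 3). Summed over all 70 listed liver, pancreas and gut genes, the level was 6299 to 8496 CPM in refractory libraries and 4808 to 6611 in regeneration libraries. For 106 retina and lens genes it was 1438 to 1989.8 CPM in refractory libraries and 1076 to 1511 in regeneration libraries. For 51 brain, heart and kidney genes it was 569 to 746 CPM in refractory libraries and 499 to 602 in regeneration libraries. Regeneration D lay above refractory D in each of these 3 sums. Higher fitted levels in refractory tails were found for 41 of 49, 49 of 53 and 26 of 31 genes tested of these lists, of which 2, 0 and 0 were called. The 2 were fetub.S and fetub.L (0.44 and 0.39), and hrg.L, a liver plasma protein outside the lists, was also called (0.48). The calls of fetub.S, fetub.L and hrg.L were lost without refractory B, regeneration B or regeneration C, and with regeneration A added (adjusted p up to 0.878). Regeneration A had 9644, 2289.6 and 891 CPM for the 3 lists, above every library compared. The part of these tissues in the results below was not tested.

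**Figure D2:**
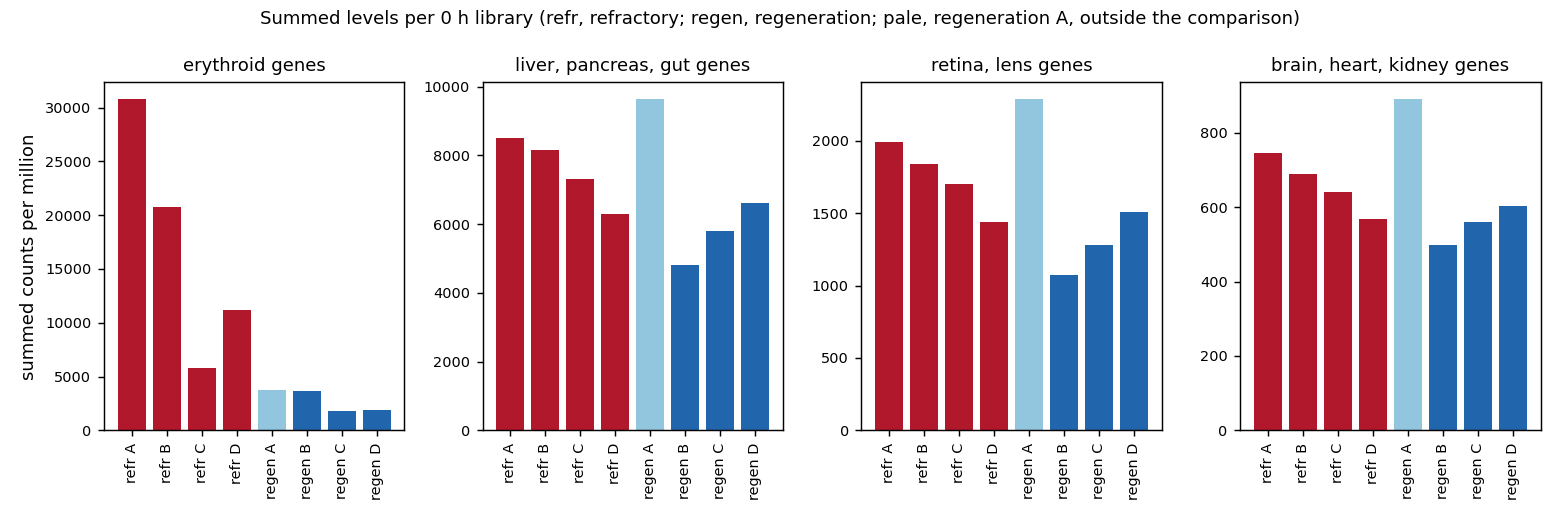
Bars give the summed CPM of 4 gene lists in each 0 h library, refractory libraries (red) left of regeneration libraries (blue, with regeneration A, outside the comparison, in pale blue). Erythroid sums run from 5779 to 30813 in refractory libraries, and the liver, retina and brain sums are highest in regeneration A.

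Among the largest rises were genes of the larval skin. Of 48 larval skin genes tested, 5 were higher in refractory tails and 0 lower, with a list median of -0.02, so most of the list did not pass the test. Without regeneration B or C, 2 were called, and with refractory A and B left out, 8. The called genes were ouro1.S, ouro2.L, thdl18.S, thdl20.S and upk3a.L. The ouro genes encode keratin-related proteins of the larval tail known in Xenopus as antigens that the adult immune system rejects at metamorphosis, and the thdl genes are tadpole skin genes that thyroid hormone turns down. ouro1.S had 55.3, 102, 119 and 159.9 CPM in refractory A to D, against 0, 0.699 and 0 CPM in regeneration B to D. Its 2 counts over the regeneration libraries against 1166 over the refractory libraries gave a ratio of 518 per unit depth, with a 95% counting interval of 143 to 4280 (log2 difference 8.72 ± 0.61 SE, adjusted p = 5.76e-07). ouro2.L had 5.4, 11.4, 16.8 and 30.2 CPM in refractory A to D, against 0, 0 and 0 CPM in regeneration B to D, with 172 refractory counts in all. Against 3 counts over the regeneration group, it was at least 50.9-fold higher in refractory tails (adjusted p = 5.53e-06). Both genes were called in all 17 alternatives.

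thdl20.S had 106, 93.2, 319 and 307 CPM in refractory A to D, against 0.259, 0.699 and 3.06 CPM in regeneration B to D. Refractory C and D held far more than A and B, and no regeneration library came near any of them (log2 difference 7.38 ± 1.04 SE, adjusted p = 0.0375). thdl18.S had 43.6, 116, 234 and 213 CPM in refractory A to D, against 1.04, 0 and 0.766 CPM in regeneration B to D, with refractory A the lowest of its group and no overlap (log2 difference 7.79 ± 1.13 SE, adjusted p = 0.0415). The call of thdl20.S was lost without refractory A, C or D, or any 1 of regeneration B, C and D (adjusted p up to 0.227). That of thdl18.S was lost without refractory B, C or D, any 1 of the regeneration libraries, or the filter on low counts (up to 0.241). thdl17.L, with 25.4, 42, 105 and 119.6 CPM in refractory A to D, against 0, 0 and 0 CPM in regeneration B to D, was not called (adjusted p = 0.145), though 9 of the 17 alternatives called it. upk3a.L, a uroplakin of surface epithelia, averaged 410.3 ± 38.3 CPM in refractory tails and 286 ± 27.3 CPM in regeneration tails (log2 difference 0.52 ± 0.11 SE, adjusted p = 0.00621). The call of upk3a.L was lost without regeneration B or C (up to 0.113). General epidermal genes on the same list, such as the transcription factor tp63.L (112 against 131 CPM in refractory against regeneration tails) and the cadherin cdh1.S (147 against 195 CPM), were not called. For both of these, every refractory library still lay below every regeneration library (adjusted p = 0.544 and 0.114).

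Keratins, which form the intermediate filaments of epithelia, moved in both directions. Of 28 keratin genes tested, 2 were higher and 7 lower in refractory tails, with a list median of -0.37. The pair of homeologs of krt7 were among the most abundant genes that fell. krt7.L had 993, 893, 792 and 870.1 CPM in refractory A to D, against 2910.4, 2703 and 2142 CPM in regeneration B to D, and the libraries of the periods were far apart (log2 difference -1.54 ± 0.10 SE, adjusted p = 9.99e-13). krt7.S had 737, 704, 696 and 882 CPM in refractory A to D, against 3947, 3115 and 2305 CPM in regeneration B to D (log2 difference -2.05 ± 0.16 SE, adjusted p = 3.79e-05). Both krt7 calls were lost with regeneration A added and in the fit over all 32 libraries (adjusted p up to 0.286). With regeneration A added, 1 keratin was called higher and 3 lower, without any 1 regeneration library 0 higher and 7 lower, and over all 32 libraries 2 higher and 1 lower. krt12.4.S, an embryonic epidermal keratin, had 202, 216, 246 and 174 CPM in refractory A to D, against 728, 811 and 674 CPM in regeneration B to D, and its call held in all 17 alternatives (log2 difference -1.82 ± 0.11 SE, adjusted p = 9.99e-13). krt12.4.L, krt12.2.S, krt12.5.S and krt70.S also fell, with log2 differences of -1.24, -1.36, -1.05 and -1.59, and the calls of krt12.5.S and krt70.S were lost with regeneration A added (up to 0.606 and 0.373). Against these, krt62.L, a larval keratin, had 48.2, 85.4, 132 and 187 CPM in refractory A to D, against 3.11, 3.5 and 0.383 CPM in regeneration B to D (log2 difference 5.51 ± 0.77 SE, adjusted p = 0.0294). The call of krt62.L was lost without any 1 of regeneration B, C and D (up to 0.218), and its homeolog krt62.S averaged 556 ± 180.2 CPM in refractory tails and 384 ± 64.8 CPM in regeneration tails (adjusted p = 0.554). krt78.1.L had 0.416, 6.19, 3.84 and 7.12 CPM in refractory A to D, against 0, 0 and 0 CPM in regeneration B to D, at least 14.5-fold higher in refractory tails against 3 counts over the regeneration group, and its call was lost without any 1 of the regeneration libraries (up to 0.235).

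Among genes of secreted proteins of the skin, single members differed. Of 15 goblet and small secretory cell genes tested, itln1.L was the 1 called lower and the mucin muc1.S the 1 called higher, with a list median of 0.00. itln1.L, an intelectin that embryonic epidermal secretory cells release, had 182, 143, 124 and 109.8 CPM in refractory A to D, against 672, 563 and 556 CPM in regeneration B to D. Every refractory library lay well below the lowest regeneration library, and the call held in all 17 alternatives (log2 difference -2.10 ± 0.13 SE, adjusted p = 2.11e-12). otogl2.L, a mucin-like protein of skin goblet cells, lies outside that list and was the most abundant called gene. It had 9176, 8510.0, 8395 and 7890.3 CPM in refractory A to D, against 15129, 14974 and 16016 CPM in regeneration B to D (log2 difference -0.86 ± 0.07 SE, adjusted p = 6.39e-10). The call of otogl2.L was lost in the fit over all 32 libraries (adjusted p = 0.0803). fucolectin.S, a fucose-binding lectin, averaged 91.9 ± 10.6 CPM in refractory tails and 213 ± 34.1 CPM in regeneration tails (log2 difference -1.22 ± 0.14 SE, adjusted p = 6.41e-07). lgals3.L, a galectin, averaged 577 ± 22.9 CPM in refractory tails and 1194 ± 213 CPM in regeneration tails (log2 difference -1.05 ± 0.10 SE, adjusted p = 2.65e-08). These last 2 genes were named after their values were seen, and the call of lgals3.L was lost with regeneration A added (up to 0.269). muc1.S averaged 144 ± 8.22 CPM in refractory tails and 89.5 ± 19.5 CPM in regeneration tails (log2 difference 0.69 ± 0.15 SE, adjusted p = 0.00795). The call of muc1.S was lost without regeneration B or C, or with regeneration A added (up to 0.259). In bulk tissue, fewer cells of a type and less RNA per cell cannot be told apart.

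**Figure D3:**
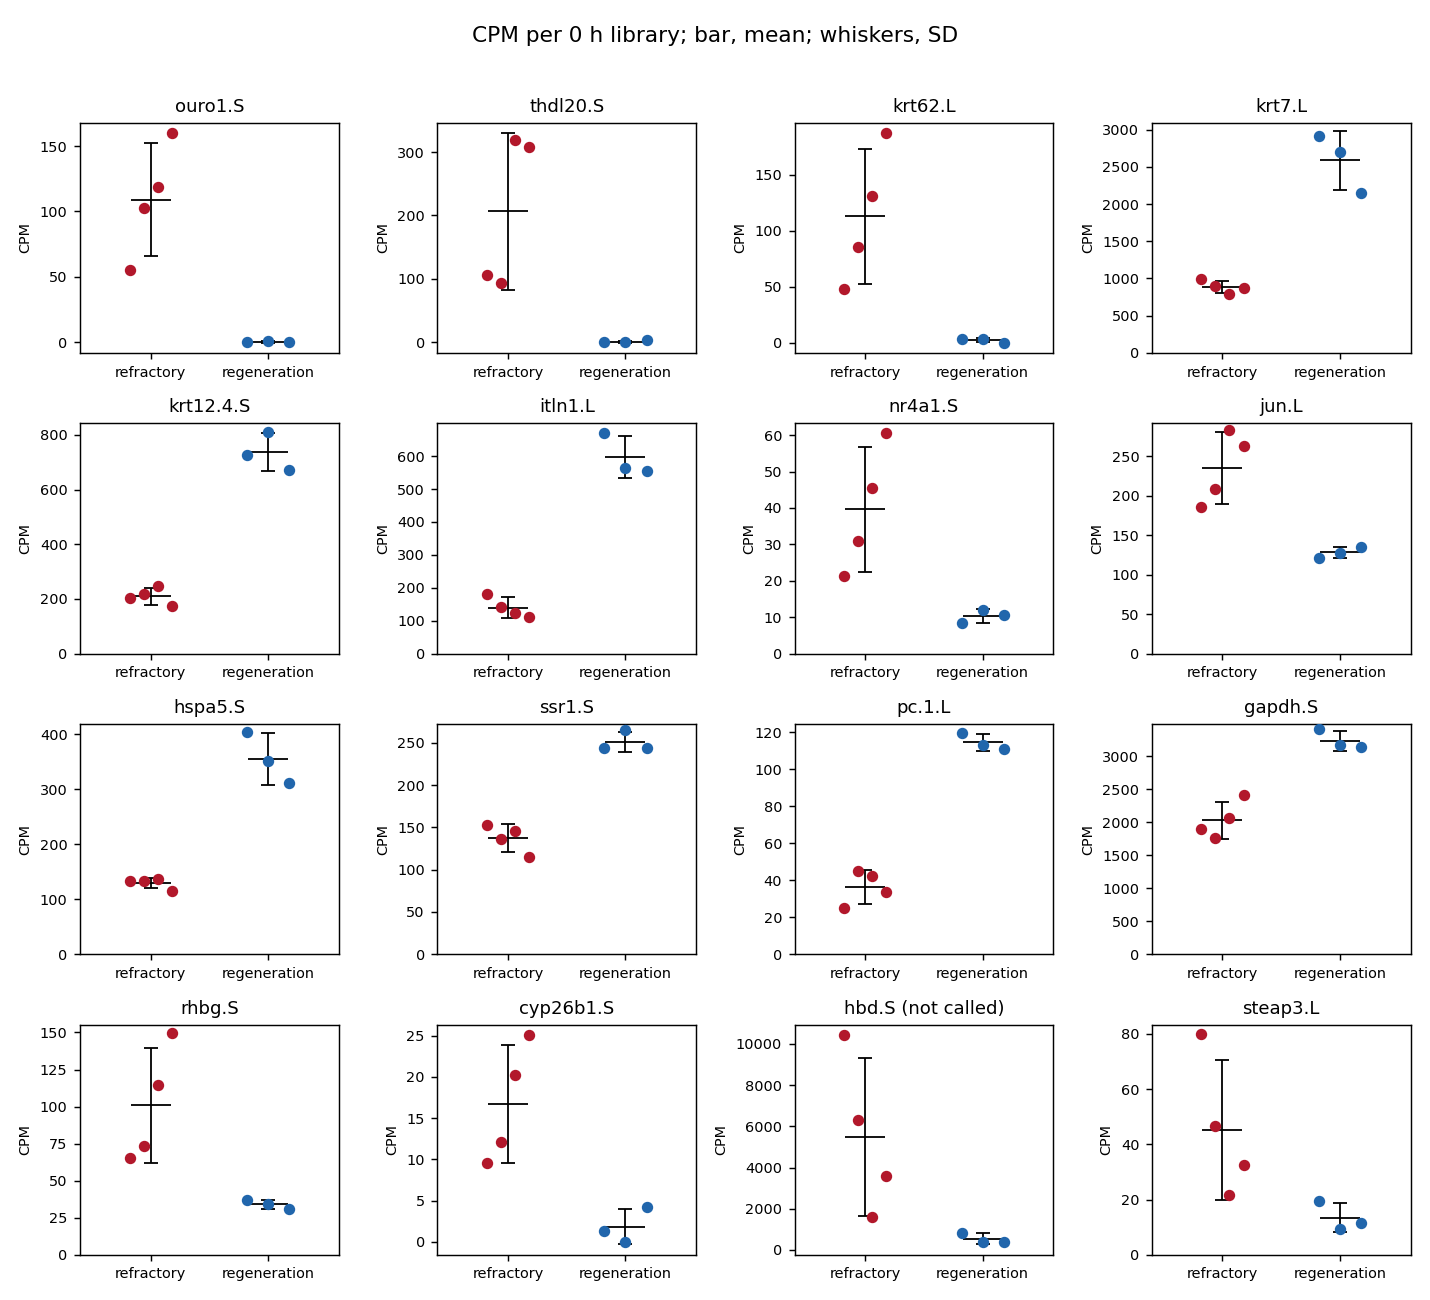
Points give the CPM of each 0 h library for 16 genes, refractory A to D (red) left of regeneration B to D (blue), with the group mean as a bar and the SD as whiskers. The groups do not overlap in any of the 16 panels, and hbd.S, whose refractory libraries spread from 1599.9 to 10433 CPM, was not called.

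Several chaperone genes of the endoplasmic reticulum (ER), where secreted proteins fold, were lower in refractory tails. Of 62 heat shock and ER stress genes tested, 7 fell and 0 rose, 48 of the 62 had negative differences, and the list median was -0.36. The 7 were hspa5.L, hspa5.S, hsp90b1.L, hsp90b1.S, calr.L, manf.L and hspa9.L. All but hspa9.L, the mitochondrial member of the HSP70 family, encode ER proteins. hspa5.S, the ER chaperone BiP, had 133, 133, 136 and 115 CPM in refractory A to D, against 404, 350.4 and 311 CPM in regeneration B to D. Each refractory library was below every regeneration library by more than the whole range of either group (log2 difference -1.46 ± 0.12 SE, adjusted p = 6.45e-10). Its homeolog hspa5.L had 82.3, 65.2, 50.9 and 62 CPM in refractory A to D, against 189, 153 and 152 CPM in regeneration B to D (log2 difference -1.34 ± 0.16 SE, adjusted p = 1.2e-06). hsp90b1.S, the ER chaperone of the HSP90 family, averaged 26.4 ± 6.79 CPM in refractory tails and 67.4 ± 19.2 CPM in regeneration tails (log2 difference -1.35 ± 0.24 SE, adjusted p = 0.000635). hspa5.S, hsp90b1.S and hspa9.L were called in all 17 alternatives. The call of hsp90b1.L was lost without regeneration B or C (adjusted p up to 0.117), and those of calr.L and manf.L with regeneration A added (0.089 and 0.124). The cytosolic chaperones hsp90ab1.S (2243 against 2312 CPM, adjusted p = 0.905) and hspa8.L (93.3 against 119.6 CPM, adjusted p = 0.311), picked outside the naming rule, were not called. Every refractory library still lay below every regeneration library for hspa8.L, and its log2 difference of -0.36 equals the list median.

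Genes that move proteins into the ER, glycosylate them and carry them onward were also among those that fell. Their lists were drawn up after values were seen. Of 54 translocation and glycosylation genes tested, 7 fell and 0 rose, with a median of -0.31. Summed levels over all 62 listed were 2672 to 3128 CPM in refractory libraries and 3605 to 3872 in regeneration libraries. ssr1.S, a subunit of the translocon-associated complex, had 153, 136, 145 and 115 CPM in refractory A to D, against 243, 265 and 244 CPM in regeneration B to D (log2 difference -0.87 ± 0.13 SE, adjusted p = 3.33e-05), and was called in all 17 alternatives. The channel subunits sec61a1.L and sec61a1.S fell by 0.54 and 0.39 on the log2 scale. The oligosaccharyltransferase subunits rpn2.S, ddost.L and stt3a.L had differences of -0.75, -0.70 and -0.73, and the ER lectin mlec.S -0.67. Adding regeneration A left 3 called; 2 were called without regeneration B, and 1 without regeneration C. Among 54 vesicle coat and cargo receptor genes, 3 fell and 0 rose (median -0.33): copg1.L of the COPI coat, the cargo receptor surf4.1.S and the retrieval receptor kdelr2.L. With regeneration A added or without regeneration B, 1 was called, and without regeneration C, 0. Collagen-modifying ER enzymes outside the lists, named after their values were seen, were lower as well: the prolyl hydroxylase subunit p4hb.L at 143 against 317 CPM (log2 difference -1.15 ± 0.13 SE, adjusted p = 2.55e-07) and the prolyl isomerase fkbp10.L at 139 against 296 CPM (log2 difference -1.09 ± 0.12 SE, adjusted p = 3.37e-07) in refractory against regeneration tails.

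Several immediate early genes, whose transcription is switched on within minutes of a stimulus, were higher in refractory tails. Of 63 tested, 8 rose and 0 fell, 50 had positive differences, and the list median was 0.38. nr4a1.S, an orphan nuclear receptor, had 21.2, 31, 45.6 and 60.6 CPM in refractory A to D, against 8.29, 11.9 and 10.7 CPM in regeneration B to D. Refractory D was the highest and refractory A the lowest of its group, and the periods did not overlap (log2 difference 1.95 ± 0.34 SE, adjusted p = 0.00043). jun.L, a subunit of the AP-1 transcription factor, had 186, 209, 284 and 263 CPM in refractory A to D, against 121, 128 and 136 CPM in regeneration B to D (log2 difference 0.88 ± 0.14 SE, adjusted p = 0.000135). Both calls held in all 17 alternatives. jun.S averaged 266 ± 19.4 CPM in refractory tails and 177 ± 13.1 CPM in regeneration tails (log2 difference 0.59 ± 0.12 SE, adjusted p = 0.00306). The zinc finger activator egr1.L had 129, 158, 152 and 202 CPM in refractory A to D, against 71.5, 112 and 96.1 CPM in regeneration B to D (log2 difference 0.78 ± 0.16 SE, adjusted p = 0.00432), and egr1.S followed at 91.3 against 48.9 CPM, with an overlap between the groups (log2 difference 0.91 ± 0.23 SE, adjusted p = 0.0354). nr4a2.L, zfp36.L and zfp36.S, the last 2 encoding a protein that shortens the life of cytokine mRNAs, had differences of 1.14, 0.66 and 0.68. The AP-1 gene fos.L (5.86 against 5.94 CPM) was not called. Nor was its homeolog fos.S (5.14 against 1.67 CPM, log2 difference 1.54, adjusted p = 0.594), whose groups overlapped. Both rest on few counts, so neither shows that fos was unchanged. With regeneration A added, 3 were called, and without regeneration B, 5. The calls of egr1.L and nr4a2.L were lost in both of these fits (up to 0.644 and 0.346 over the alternatives), and those of jun.S and zfp36.L with regeneration A added (up to 0.218 and 0.212). That of egr1.S was lost without refractory B or D, or any 1 of the regeneration libraries (up to 0.615). Outside the list, the stimulus-responsive kinase sik1.S and the matricellular gene ccn1l.L, named after their values were seen, rose too, at 80.8 against 21.3 CPM (log2 difference 1.93 ± 0.25 SE, adjusted p = 5.05e-06) and 93.8 against 22.5 CPM (log2 difference 2.05 ± 0.24 SE, adjusted p = 1.77e-06).

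Enzymes of sugar and pyruvate metabolism were divided. Of 60 glycolysis and hypoxia genes tested, 5 rose and 8 fell (median -0.11). Those that fell were mainly glycolytic enzymes. gapdh.S had 1894, 1757, 2062 and 2403 CPM in refractory A to D, against 3404, 3163 and 3131 CPM in regeneration B to D (log2 difference -0.67 ± 0.09 SE, adjusted p = 1.04e-05). aldoa.L, an aldolase abundant in muscle, had 5173, 4681, 5003 and 5719 CPM in refractory A to D, against 7523, 6994 and 7240.5 CPM in regeneration B to D (log2 difference -0.50 ± 0.08 SE, adjusted p = 0.0001), and aldoa.S, ldha.S and ldhb.S had differences of -0.39, -0.78 and -0.80. Also lower were fbp1.S, an enzyme of glucose synthesis, and slc16a3.L, a lactate exporter, at -0.65 and -2.63. The level of slc16a3.L was low, with 3.74, 2.93, 0 and 1.36 CPM in refractory A to D, against 9.84, 15.7 and 13.4 CPM in regeneration B to D. At 0.5 and 6 h slc16a3.L was not called (log2 differences -0.46 and -0.17, adjusted p = 0.833 and 0.927). The genes that rose were both homeologs of ndrg1, a stress-responsive gene, both of pdk4, a kinase that keeps pyruvate out of the citric acid cycle, and g6pc1.3.L, which releases free glucose. ndrg1.S had 128, 165, 122 and 155 CPM in refractory A to D, against 41.2, 58.1 and 58.2 CPM in regeneration B to D (log2 difference 1.45 ± 0.17 SE, adjusted p = 8.39e-07). pdk4.S had 116, 195, 245 and 243 CPM in refractory A to D, against 100.0, 84.3 and 86.9 CPM in regeneration B to D, with refractory A the lowest of its group (log2 difference 1.14 ± 0.20 SE, adjusted p = 0.00468). The calls of gapdh.S, aldoa.L and aldoa.S were lost with regeneration A added (up to 0.543), that of ldha.S without regeneration B (up to 0.0987), and that of pdk4.S without regeneration C or D (up to 0.0876). With regeneration A added, 4 genes were called higher and 2 lower, and without regeneration C, 1 was called higher and 6 lower. g6pc1.3.L is an enzyme of liver (24.4 against 7.44 CPM in refractory against regeneration tails), and its call was lost without regeneration C (up to 0.291). The liver sums given above ran higher in refractory libraries, except that regeneration D lay above refractory D. In refractory A to D, those sums were 8496, 8144, 7315.5 and 6299, and g6pc1.3.L had 17.9, 21.5, 26.9 and 31.2 CPM. The part of liver in the difference of g6pc1.3.L was not tested.

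Of 41 citric acid cycle genes, a list drawn up after values were seen, 4 fell and 0 rose (median -0.11). pc.1.L, pyruvate carboxylase, had 24.9, 45.3, 42.3 and 33.9 CPM in refractory A to D, against 119.9, 113 and 111 CPM in regeneration B to D (log2 difference -1.65 ± 0.19 SE, adjusted p = 6.76e-07). cs.L, citrate synthase, averaged 571 ± 58.2 CPM in refractory tails and 959 ± 18.8 CPM in regeneration tails (log2 difference -0.75 ± 0.10 SE, adjusted p = 5.33e-06), and ogdh.S, of the oxoglutarate dehydrogenase complex, had a difference of -0.46. Adding regeneration A left 0 called and a median of 0.06. The median was also above 0 in the fit over all 32 libraries (0.05) and with refractory A and B left out (0.04, 2 called), and 2 were called without regeneration B. Among 114 nuclear genes of the respiratory chain, 0 were called, against 1.98% of all genes tested, and their median was 0.06.

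Red cell genes differed with a wide spread between libraries, and how many passed the test depended on the fit. Of 26 erythroid genes tested, 3 rose and 0 fell, 22 had positive differences, and the median was 1.37. Over all 36 listed, the summed level was 30813, 20731, 5779 and 11163 CPM in refractory A to D, against 3639, 1769 and 1924 in regeneration B to D. The most abundant globin genes were not called: hbd.S had 10433, 6314, 1599.9 and 3573 CPM in refractory A to D, against 841, 369.7 and 393 CPM in regeneration B to D (adjusted p = 0.17; 4 of the 17 alternatives called it). Called were the low-abundance globins hbg2.L and hba-l5.L and the membrane skeleton gene add2.S. hbg2.L had 45.3, 21.5, 11 and 53.2 CPM in refractory A to D, against 3.88, 0.35 and 0.383 CPM in regeneration B to D (log2 difference 4.22 ± 0.76 SE, adjusted p = 0.0133), and hba-l5.L 40.7, 25.7, 6.72 and 12.5 CPM in refractory A to D, against 3.37, 1.05 and 4.6 CPM in regeneration B to D (log2 difference 2.82 ± 0.56 SE, adjusted p = 0.00405). The call of hbg2.L was lost without regeneration C or D (adjusted p up to 0.117), that of hba-l5.L without regeneration B (up to 0.316), and that of add2.S without refractory A or B, or any 1 of the regeneration libraries (up to 0.458). With refractory A and B left out, 2 were called and the median was 0.81, without refractory C 7 were called, and without regeneration C 1. With the replicate block 11 were called higher, by DESeq2 12 of 36 tested, without the filter on low counts 9 and with 8 groups over 27 libraries 6. None was called lower in any of these fits.

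Among 29 iron handling genes, a list drawn up after values were seen, 4 rose and 1 fell. steap3.L, which reduces iron for uptake by red cell precursors, had 79.8, 46.6, 21.6 and 32.5 CPM in refractory A to D, against 19.4, 9.44 and 11.5 CPM in regeneration B to D (log2 difference 1.72 ± 0.37 SE, adjusted p = 0.0131), with the refractory libraries in the same order as their erythroid sums. The call of steap3.L was lost without refractory B, regeneration C or regeneration D (up to 0.233), and the part of red cells in its difference was not tested. The ferritin gene fth1.1.S averaged 963 ± 116 CPM in refractory tails and 632 ± 55.2 CPM in regeneration tails and was called in all 17 alternatives (log2 difference 0.61 ± 0.10 SE, adjusted p = 0.000353). erfe.L, which red cell precursors secrete, and the metal transporter slc39a8.S also rose (1.44 and 2.09), and the mitochondrial ferritin ftmt.S fell by 0.62 on the log2 scale. Without refractory B, without regeneration C, or with refractory A and B left out, 1 of the list was called higher, and without refractory A or regeneration D, 2. Of 4 ammonium channel genes tested, a list of the same kind, 3 rose. rhbg.S had 65.3, 73.7, 115 and 149 CPM in refractory A to D, against 37, 34.3 and 30.6 CPM in regeneration B to D (log2 difference 1.56 ± 0.23 SE, adjusted p = 0.000135), rhbg.L averaged 136 ± 27.6 CPM in refractory tails and 73.1 ± 10.5 CPM in regeneration tails (log2 difference 0.89 ± 0.17 SE, adjusted p = 0.00128), and rhcg.L rose (log2 difference 2.08). The call of rhcg.L was lost without refractory B or D, or regeneration B or D (up to 0.156), and that of rhbg.L with regeneration A added (up to 0.089). The fourth, rhag.L, which belongs to red cells, was not called (6.99 against 5.68 CPM).

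Matrix and connective tissue genes changed in few members. Of 106 mesenchyme and collagen matrix genes tested, 3 rose and 5 fell (median -0.03). kera.S, keratocan of the stromal matrix, had 9.98, 25.4, 36 and 60.0 CPM in refractory A to D, against 5.44, 4.9 and 4.98 CPM in regeneration B to D (log2 difference 2.68 ± 0.45 SE, adjusted p = 0.000695), and pcolce.S, an enhancer of procollagen processing, averaged 486 ± 75.9 CPM in refractory tails and 304 ± 17.6 CPM in regeneration tails (log2 difference 0.67 ± 0.12 SE, adjusted p = 0.000458). Both were called in all 17 alternatives. The more abundant homeolog kera.L averaged 136 ± 44.5 CPM in refractory tails and 124 ± 20 CPM in regeneration tails, with an overlap, and was not called (log2 difference 0.13, adjusted p = 0.894). tnmd.S, the tendon gene tenomodulin, had 4.16, 0.652, 7.2 and 9.83 CPM in refractory A to D, against 0, 0 and 0 CPM in regeneration B to D, at least 16.6-fold higher in refractory tails against 3 counts over the regeneration group. The call of tnmd.S was lost without any 1 of the regeneration libraries (adjusted p up to 0.128). chad.L, a cartilage matrix protein outside the list, had 9.14, 11.1, 15.8 and 12.2 CPM in refractory A to D, against 0.777, 1.4 and 0 CPM in regeneration B to D (log2 difference 3.94 ± 0.72 SE, adjusted p = 0.00103) and was called in all 17 alternatives. Those that fell were the thrombospondins thbs4.L, thbs4.S and thbs3.L, the basement membrane collagen col4a6.L and tenascin tnc.L. thbs4.L had 76.1, 87.3, 78.3 and 85.7 CPM in refractory A to D, against 215, 167 and 128 CPM in regeneration B to D (log2 difference -1.06 ± 0.16 SE, adjusted p = 4.58e-05). The call of thbs4.L was lost with regeneration A added (adjusted p up to 0.703 over the alternatives), where 2 of the list were called higher and 0 lower. Without refractory A, 7 were called higher and 2 lower, with refractory A and B left out, 12 and 2, and without regeneration B or C, 2 and 1. The main fibrillar collagen col1a1.L had 7871, 9690.2, 15176 and 16655 CPM in refractory A to D, against 9047, 8469.5 and 8095 CPM in regeneration B to D and was not called (adjusted p = 0.579; 2 of the 17 alternatives called it).

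Of 96 sarcomere and contraction genes, 1 rose (1.04%) and 2 fell (2.08%), with a list median of 0.01. Of all genes tested, 0.758% were called higher and 1.23% lower. Among the called sarcomere and contraction genes, the muscle glycogen enzyme pygm.S had the largest difference (log2 difference -1.24 ± 0.18 SE, adjusted p = 3.78e-05). The others were the glycolytic muscle enzyme pgam2.L (-0.56) and the light chain gene myl4.L (0.59). The list does not hold every muscle gene. Outside it, tnni1.2.L, des.1.L, mypn.L and mypn.S were called lower (log2 differences -0.91, -0.69, -0.65 and -1.15). They were named after their values were seen, and calls of muscle genes outside the list were not counted in either direction. Count and direction of this list turned on the libraries: without refractory D, 3 were called higher and 7 lower (median -0.13), with refractory A and B left out 10 higher and 1 lower (median 0.26), and adding regeneration A left 0 called (median 0.10). Of 37 myogenic regulators, 1, the cadherin cdh15.L, fell (-0.69). Of 39 notochord genes, cnmd.L rose and hapln3.S fell (0.54 and -0.81), each 2.56% of the list. The call of pygm.S was lost with regeneration A added (up to 0.623), and those of cdh15.L, cnmd.L and hapln3.S without any 1 of several libraries, regeneration B and C among them (up to 0.439, 0.169 and 0.229).

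Neural genes had mostly positive differences, with few calls. Called higher were 3.03% of the spinal cord progenitor genes and 1.33% of the neuron genes, the latter a single gene. Of all genes tested, 0.758% were called higher, and 8901 of 17288 had positive differences. Of 66 spinal cord progenitor genes, 2 were called, pax6.L (55.7 against 26.4 CPM, log2 difference 1.08 ± 0.24 SE, adjusted p = 0.00743) and zic2.S (33.3 against 16 CPM, log2 difference 1.05 ± 0.29 SE, adjusted p = 0.0479), and 53 were positive (median 0.22). Of 75 neuron genes, 1, the axonal microtubule gene mapt.S, was called (537 against 338 CPM, log2 difference 0.67 ± 0.11 SE, adjusted p = 0.000364) and 61 were positive (median 0.29). The retina and brain sums given above also ran higher in refractory libraries, except that regeneration D lay above refractory D, and their part in these differences was not tested. Adding regeneration A left 0 of either list called, and without regeneration B or C, 0 of the spinal cord genes.

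An enzyme that degrades retinoic acid and one that inactivates thyroid hormone were among the rises. Of 34 retinoic acid pathway genes, 2 rose and 1 fell (median 0.28). cyp26b1.S, which degrades retinoic acid, had 9.56, 12.1, 20.2 and 25.1 CPM in refractory A to D, against 1.29, 0 and 4.21 CPM in regeneration B to D, and its call was lost without regeneration B (adjusted p = 0.0616; log2 difference 3.21 ± 0.64 SE, adjusted p = 0.00319). rdh10.L, which makes its precursor, rose (0.77), and tgm2.L, a crosslinking enzyme that retinoic acid induces, fell (-0.79). The call of tgm2.L held in all 17 alternatives, and that of rdh10.L was lost without refractory B or C, or regeneration B or C (up to 0.518). The more abundant homeolog cyp26b1.L averaged 38.9 ± 12.2 CPM in refractory tails and 23.0 ± 5.33 CPM in regeneration tails, with an overlap. It was not called (log2 difference 0.75, adjusted p = 0.19). Nor were cyp26a1.L and cyp26a1.S, with differences of -0.51 and 0.62 (adjusted p = 0.553 and 0.222). Of 14 thyroid hormone pathway genes, 1 was called: dio3.L, which inactivates thyroid hormone, had 11.2, 11.1, 16.3 and 17.6 CPM in refractory A to D, against 5.18, 0.699 and 3.06 CPM in regeneration B to D (log2 difference 2.18 ± 0.55 SE, adjusted p = 0.0245). The call of dio3.L was lost without refractory C or D, or regeneration C or D (up to 0.193).

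No member was called on the lists of Wnt (77 genes tested), FGF (36), BMP and TGF-beta (73), Notch (51) and Hedgehog (26) pathway genes, Hox and cdx genes (48), and regulators of the tail tip and regeneration (51). Of all genes tested, 1.98% were called, so lists of this size would hold few calls at that share. The Notch list was narrowed after values were seen, so its count is not a result. The Wnt regulator frat1.S, which is not on the Wnt list, was called higher (1.26) and was named after its value was seen. Among those of the tail tip, lef1.L averaged 119 ± 16.2 CPM in refractory tails and 139 ± 3.04 CPM in regeneration tails (adjusted p = 0.57) and sp8.L 40.4 ± 9.04 CPM in refractory tails and 62.8 ± 4.03 CPM in regeneration tails (adjusted p = 0.13). Hox and cdx genes, which set position along the body axis, had 34 negative and 14 positive differences (median -0.22). The 39 motile cilium genes had 29 negative differences and a median of -0.37, with 0 called. Of 126 cell cycle genes, 1, the spindle gene tpx2.S, was called (-0.60, lower), 0.794% of the list against 1.23% of all genes tested. The call of tpx2.S was lost without any 1 of refractory B, C and D or regeneration B, C and D (up to 0.329). No member was called among myeloid (18), lymphoid (5), interferon response (18), complement (10), endothelial (29) or ionocyte (21) genes, and 1 of 29 inflammatory mediators, the transcription factor cebpd.L, rose (log2 difference 0.64 ± 0.13 SE, adjusted p = 0.00231), a call lost with regeneration A added and in the fit over all 32 libraries (up to 0.206). Over the genes tested, 2138 had an unadjusted p under 0.05. A panel of 27 symbols from regeneration and developmental timing gave 31 genes tested, of which 2, egr1.L and egr1.S, were called. The other panel genes included the blastema gene msx1.S (170.4 against 233 CPM in refractory against regeneration tails, adjusted p = 0.0595), the timing genes hmga2.L (200.2 against 178 CPM) and lin28b.L (10.8 against 9.17 CPM), the neural progenitor gene sox2.L (24.2 against 19.7 CPM) and the proliferation gene mki67.L (107 against 96.5 CPM). pltp.S, a phospholipid transfer protein, had 63.6, 60.3, 126 and 164 CPM in refractory A to D, against 40.4, 50.4 and 36.8 CPM in regeneration B to D and was not called (adjusted p = 0.175), though 9 of the 17 alternatives called it.

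**Figure D4:**
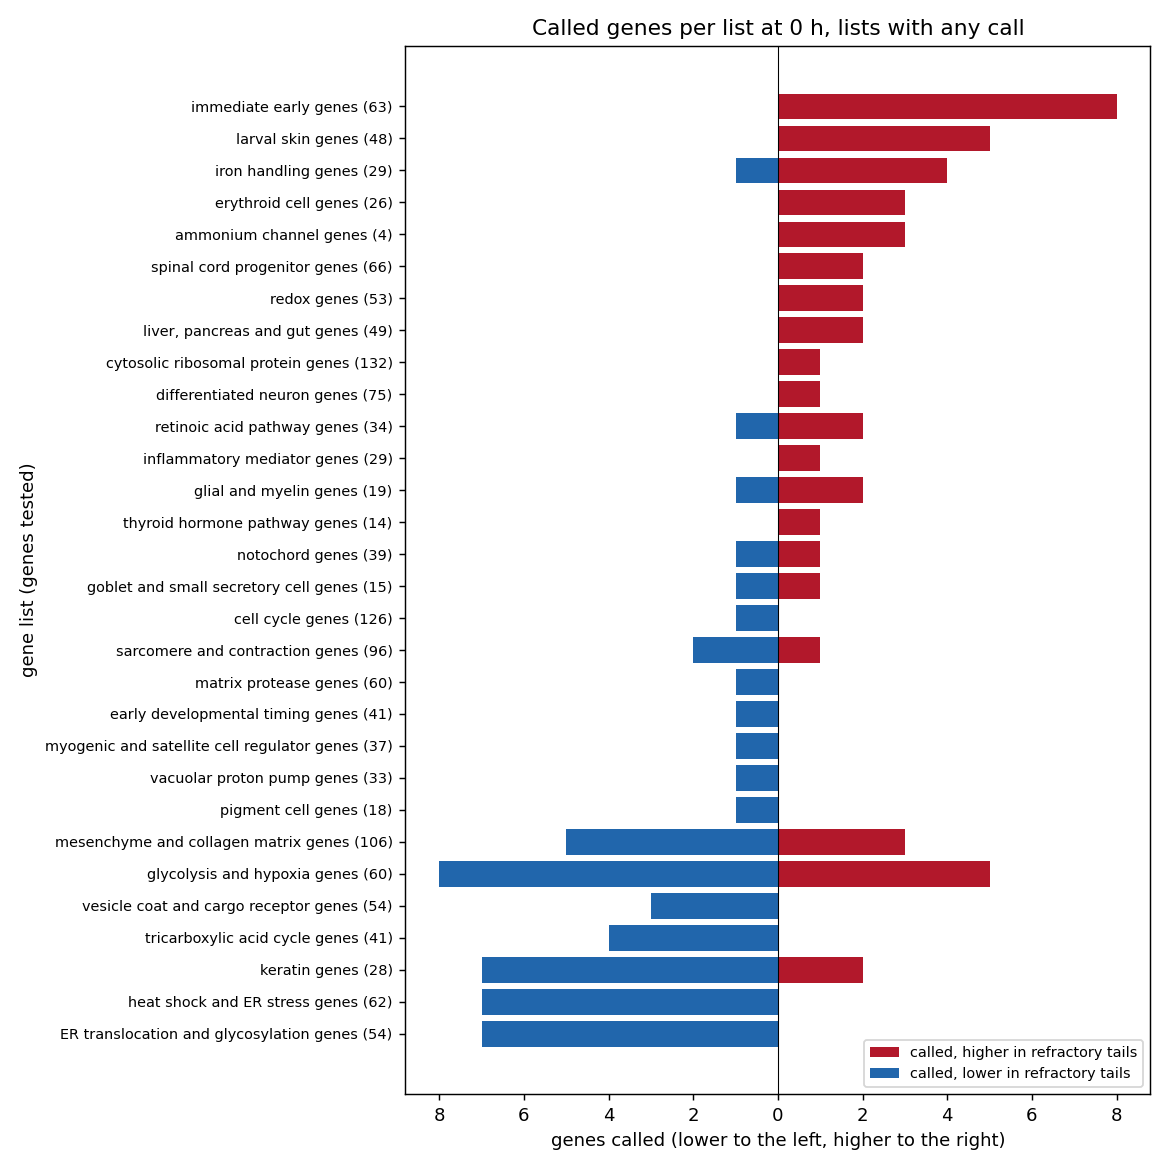
Bars count the genes called per list at 0 h, lower in refractory tails to the left in blue and higher to the right in red, for the lists with any call and with the number of genes tested in brackets. Immediate early genes have 8 calls, all higher, and heat shock and ER stress genes have 7, all lower.

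Xenopus laevis carries 2 copies of much of its genome, whose genes end in .L and .S. Of the 131 genes called higher, 64 had a tested homeolog, 62 of the 64 with the same sign and 22 also called. Of the 212 called lower, 123 had a tested homeolog, 100 with the same sign (81.3%) and 32 also called. No homeolog was called in the opposite direction. Over all 4509 pairs tested, 60.7% had the same sign. How reads shared by near-identical homeologs were assigned is not stated, so the members of a pair are not independent. Provisional names were carried by 68 of the 343 called genes, which are counted but not named here.

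Later libraries, which share none with the 0 h fit, gave separate fits of the same difference, though letters shared between times may mark a common source. At 0.5 h, 482 of 16820 genes were called (2.87%, 1.56% higher and 1.3% lower). Of the 339 genes called at 0 h and tested there, 330 had the same sign and 174 (51.3%) were called in the same direction. At 6 h, 788 of 18085 genes were called (4.36%, 2.2% higher and 2.16% lower). Of 340 genes, 314 had the same sign, 177 (52.1%) were called in the same direction and 2 in the opposite one. At 72 h, 632 of 18760 genes were called (3.37%, 1.36% higher and 2% lower). Of 332 genes, 234 had the same sign, 77 (23.2%) were called in the same direction and 10 in the opposite one. Opposite calls at 72 h were aldoa.L, ckb.L, g6pc1.3.L, hbg2.L, rhbg.S, thdl18.S and 4 genes with provisional names, and at 6 h g6pc1.3.L and nt5dc4.L, and of these ckb.L and nt5dc4.L were named after their values were seen. The ammonium channel gene rhbg.S, higher in refractory tails at 0 h, averaged 31.8 CPM in refractory tails and 77 CPM in regeneration tails at 72 h (log2 difference -1.27, adjusted p = 3.99e-05). With all libraries of the later time, 105 genes were called in the same direction at 0.5 h and 85 at 6 h.

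Skin genes were among those still different at 72 h. itln1.L had log2 differences of -2.49, -2.70 and -1.44 at 0.5, 6 and 72 h, and krt7.L of -1.56, -1.78 and -1.17, with an adjusted p of 4.25e-09 at 72 h. otogl2.L had -0.67 at 72 h, with 8392 CPM in refractory tails and 13393 CPM in regeneration tails. Among the rises, thdl20.S had 6.99 at 6 h and -0.15 at 72 h (adjusted p = 0.836), where it averaged 104 CPM in refractory tails and 116 CPM in regeneration tails. ouro1.S had 8.39 at 6 h and did not pass the filter at 72 h. hspa5.S had -1.21, -1.02 and -0.47. egr1.L had 1.16, 1.27 and 0.85, and at 0.5 h averaged 1268 CPM in refractory tails and 568 CPM in regeneration tails. gapdh.S had -0.49 at 0.5 h, -0.60 at 6 h and a difference of 0 to 2 decimals at 72 h.

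**Figure D5:**
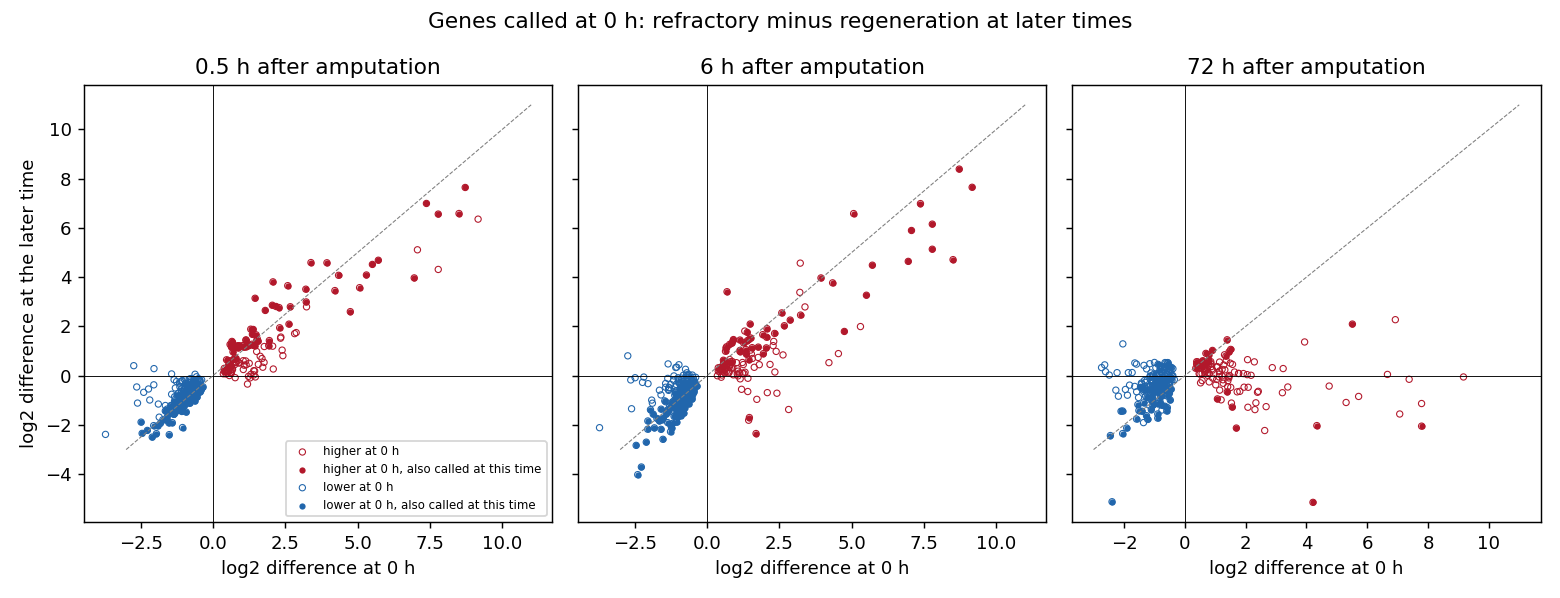
Each point is a gene called at 0 h, with its log2 difference (refractory minus regeneration) at 0 h on the horizontal axis and at 0.5, 6 or 72 h on the vertical axis. Red genes were higher and blue genes lower at 0 h, filled points were also called at the later time in either direction, and the dashed line marks equal differences. The 72 h panel holds the most genes on the other side of 0, 98 of 332.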

How the data were processed

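Bulk RNA-seq counts of 32 tail samples were deposited by the authors as raw tables, 1 per period, with normalized tables beside them. Per the labels, 100 ng of total RNA entered a SENSE Total RNA-Seq library and was sequenced in 2 x 76 base reads. The aligner STAR 2.7.9a, the counter HTSeq 0.6.1p1 and DESeq2 1.32.0 in R 4.1.0 are named per the submitters' processing notes. Build, annotation, strand setting and shared-read handling: not given in the sources used here. No coordinates or sequences are printed for that reason. The authors' normalized signal, counts divided by a size factor in each period, keeps 27 of the 32 libraries and served only to choose libraries. No value column of the tables lacked a sample (0 columns).

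The raw counts of both tables were joined by identifier. The 813 and 1023 genes listed only in the refractory or regeneration table held 0.0170% and 0.0212% of the 0 h counts and were left out. Of the 29303 identifiers, 29300 matched RefSeq symbols. Total counts were 2405038, 3037315, 2130840 and 3100089 in refractory A to D and 3876807, 2868693 and 2646237 in regeneration B to D; intervals and floors of 3 counts cover counting error only. edgeR 4.0.16 (R 4.3.3, limma 3.58.1) fitted the 7 libraries with TMM factors, its expression filter by group, robust quasi-likelihood dispersion (5 residual degrees of freedom, biological coefficient of variation 0.309) and Benjamini-Hochberg adjustment over 17288 genes, with calls at 0.05. An SE is the log2 difference divided by the square root of F. Fits at 0.5, 6 and 72 h were made separately with the same settings. The code was tested on simulated data. No pair of 0 h libraries agreed within sampling noise. DESeq2 1.42.0 was an alternative, and figures were drawn with matplotlib 3.10.9.

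Genes were named by a rule: the 12 largest called differences in each direction with at least 5 CPM in the higher group and no overlap, up to 5 called members per list and direction, a panel of 27 symbols (31 genes tested, 2 called: egr1.L and egr1.S), the 5 most abundant called genes per direction, and homeologs of these. Genes of the rule that are not printed are mainly uncalled homeologs and panel genes, described by counts and ranges, and some are not reported here. Members, lists and rule were chosen with earlier results of these data known. Some printed genes fall outside the rule, among them the uncalled tp63.L, cdh1.S, hsp90ab1.S, hspa8.L, col1a1.L, hbd.S, thdl17.L and rhag.L. The fit without refractory A and B was added after seeing the data. Also after values were seen, 5 lists were added, the Notch list was narrowed and 3 genes were taken off the timing list.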

Additional observations from a re-analysis of the deposited data

Results flagged for a closer look

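Among 133 values tested in the 4 refractory libraries, 7 had 1 library far from the other 3, where chance flags about 1 in 20. In refractory A, cnmd.L stood at 123.86 CPM, below 147 to 150.3 in refractory B to D, gstm1.S at 59.021 CPM, below 73.2 to 74.3, and zfp36.L at 236.92 CPM, below 273 to 279. In refractory D, hspa5.S stood at 114.86 CPM, below the others at 133 to 136, tpx2.S at 61.328 CPM, below 81.1 to 84, and ldha.S at 106.39 CPM, above 73.9 to 77.9. The summed level of cytosolic ribosomal protein genes was 32491 CPM in refractory C, below 35694 to 36126 in the other 3. All 6 genes still lay on 1 side of every regeneration library.

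Among the called genes named in the text, 9 had refractory libraries on 1 side of the regeneration libraries at 0 h and on the opposite side at a later time. Not examined for this were tnni1.2.L, des.1.L, mypn.L, mypn.S and frat1.S. The share of all genes tested that changed sides in this way was not counted, and the difference between times was not tested. g6pc1.3.L, higher in refractory tails at 0 h, had log2 differences of -2.34843 at 6 h and -2.12607 at 72 h, with 6.75 CPM in refractory tails and 34.3 CPM in regeneration tails at 6 h. hbg2.L had -5.14352 at 72 h, with 0.391 CPM in refractory tails and 16.5 CPM in regeneration tails, and thdl18.S had -2.04837, with 36.2 CPM in refractory tails and 149.8 CPM in regeneration tails. aldoa.L and aldoa.S, lower in refractory tails at 0 h, had 0.356488 and 0.284244 at 72 h, ckb.L, a creatine kinase, had 0.459542, and the amino acid transporter slc7a7.L had 1.29196. The ammonium channel genes rhbg.S and rhcg.L, higher in refractory tails at 0 h, had -1.27467 and -1.28157 at 72 h. At 72 h aldoa.S, slc7a7.L and rhcg.L were not called (adjusted p = 0.0838, 0.0562 and 0.141).

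Regeneration 0 h A, outside the comparison, had the highest sums of genes of other tissues among the 0 h libraries. They were 9644.25 CPM for liver, pancreas and gut genes, 2289.59 CPM for retina and lens genes and 891.325 CPM for brain, heart and kidney genes.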

How the results depend on the processing

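Of the 343 genes called, 131 higher and 212 lower in refractory tails, none changed sign in any alternative run. Without the filter on low counts, 515 were called (322 lower). Adding regeneration A left 110 called (62 higher, 48 lower). Fits of 8 groups gave 520 over 27 libraries (199 higher, 321 lower) and 142 over 32 (83 higher, 59 lower). DESeq2 called 387 (175 higher, 212 lower), and DESeq2 size factors in edgeR 344. Leaving out 1 library gave 144 (without regeneration B) to 396 (without refractory D) calls, with 53 to 170 higher and 85 to 251 lower; refractory A and B left out together, chosen after seeing the data, gave 330 (181 higher, 149 lower), of which 210 were among the 343. The share called higher was 38.2% in the comparison, 56.4% with regeneration A added, 58.5% over 32 libraries and 54.9% without refractory A and B; the cause was not tested. The replicate letters B, C and D showed no pairing (correlations of deviations -0.0065, 0.014 and -0.057); with the replicate block, 329 genes were called (159 higher, 170 lower), 249 of them among the 343. Of the 0 h calls, 105 were called in the same direction at 0.5 h and 85 at 6 h with all libraries of the later time, and 81 at 72 h. Leaving out 1 later library gave 134 to 167, 141 to 182 and 61 to 74. With 2130840 to 3876807 counts per library, low genes such as fos.L rest on few counts.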

Other observations

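Several called genes lay outside the gene groups above. The largest falls among them were in genes of low level, homer2.L (1.74 against 11.5 CPM in refractory against regeneration tails, log2 difference -2.74 ± 0.71 SE, adjusted p = 0.0331), slc16a12.S (2.39 against 14.2 CPM, log2 difference -2.61 ± 0.61 SE, adjusted p = 0.0131), kcna4.S (2.28 against 12.4 CPM, log2 difference -2.39 ± 0.63 SE, adjusted p = 0.0362), the chloride channel gene ano1.L (3.68 against 17.7 CPM, log2 difference -2.27 ± 0.51 SE, adjusted p = 0.00911), fam3a.L (-2.23) and fubp3.L (-2.18). In 17 alternatives, homer2.L was called in 9, slc16a12.S in 11, kcna4.S in 8, ano1.L in 13, fam3a.L in 14 and fubp3.L in 10. tll2l.L, a tolloid-like protease, had 19.1, 23.8, 24.5 and 27.1 CPM in refractory A to D, against 164, 136 and 86.2 CPM in regeneration B to D, and it was lower again at 0.5, 6 and 72 h (-2.34, -2.83 and -2.43). The tubulin gene tuba8.L averaged 5.6 ± 4.97 CPM in refractory tails and 31.4 ± 9.3 CPM in regeneration tails (log2 difference -2.48 ± 0.43 SE, adjusted p = 0.000633). The calpain capn8.3.L, a cytosolic protease, averaged 7.62 ± 3.28 CPM in refractory tails and 28.4 ± 6.56 CPM in regeneration tails (log2 difference -1.91 ± 0.37 SE, adjusted p = 0.00199), and capn8.2.L had a log2 difference of -1.52. The actin gene actb.S had 2614, 2632, 2699 and 2915 CPM in refractory A to D, against 3995, 4197 and 4068 CPM in regeneration B to D, with no overlap (log2 difference -0.59 ± 0.08 SE, adjusted p = 7.04e-06). Its homeolog actb.L averaged 4873 ± 45.5 CPM in refractory tails and 5164 ± 244 CPM in regeneration tails and was not called (adjusted p = 0.735). The calls of tll2l.L, tuba8.L, capn8.2.L, capn8.3.L and actb.S were lost with regeneration A added (adjusted p up to 0.394, 0.218, 0.504, 0.509 and 0.4), that of capn8.3.L also without regeneration B and that of capn8.2.L without regeneration C. Among the rises, tgm3l.1.L, a transglutaminase-like gene, had 4.16, 7.17, 3.36 and 6.44 CPM in refractory A to D, against 0, 0 and 0 CPM in regeneration B to D, at least 17.2-fold higher in refractory tails against 3 counts over the regeneration group. dstn.L, an actin-severing protein, averaged 9.73 ± 3.78 CPM in refractory tails and 1.02 ± 1.55 CPM in regeneration tails (log2 difference 3.24 ± 0.83 SE, adjusted p = 0.0284). The call of tgm3l.1.L was lost without regeneration B or C (up to 0.0964), and that of dstn.L without refractory B, C or D, or regeneration B or D (up to 0.198). sat1.S, which acetylates polyamines, had 8.73, 17.9, 17.8 and 27.4 CPM in refractory A to D, against 1.04, 0.699 and 0 CPM in regeneration B to D (log2 difference 4.75 ± 0.66 SE, adjusted p = 1.55e-05).

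Of 53 redox genes tested, 2 rose, prdx2.L and gstm1.S, and 0 fell (median -0.04). prdx2.L, a peroxiredoxin abundant in red cells, had 166, 136, 73 and 107 CPM in refractory A to D, against 50.5, 42.7 and 42.1 CPM in regeneration B to D, with the refractory libraries in the order of their erythroid sums (log2 difference 1.42 ± 0.21 SE, adjusted p = 8.11e-05). Regeneration C and D were not in that order, and the part of red cells in the difference of prdx2.L was not tested. Of 19 glial and myelin genes, the 2 homeologs of ndrg1 rose and apoe.S fell. Its homeolog apoe.L had the opposite sign, with 220 ± 88 CPM in refractory tails and 146 ± 24.6 CPM in regeneration tails, and was not called (log2 difference 0.59, adjusted p = 0.516). Single members were called lower on the lists of vacuolar proton pump genes (atp6v1a.L, 1 of 33), pigment cell genes (pnp.S, 1 of 18), matrix proteases (mmp3.L, 1 of 60) and early developmental timing genes (arid3b.L, 1 of 41). These are 3.03%, 5.56%, 1.67% and 2.44% of the lists, 1 gene each, against 1.23% of all genes tested. Genes were taken off the timing list after values were seen, so its share is not a result. The calls of gstm1.S, atp6v1a.L, pnp.S and arid3b.L were lost without regeneration B or C (up to 0.729, 0.147, 0.549 and 0.227), and those of mmp3.L and apoe.S with regeneration A added (up to 0.561 and 0.462). Of 132 cytosolic ribosomal protein genes, rps3.L was called higher (log2 difference 0.36 ± 0.09 SE, adjusted p = 0.0352). That is 0.758% of the list, and 0.758% of all genes tested were called higher. The call of rps3.L was lost without regeneration B or C (up to 0.255). Of 29 apoptosis genes 0 were called, against 1.98% of all genes tested.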
